A study of Mus musculus with 4 samples.

Results

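The 39 interferon-stimulated genes described here were taken by symbol from the gene table deposited for Tet2 KO and wild type (WT) primary myoblasts. All 39 symbols were found among the 24445 genes of the table. The choice was made by name, with earlier results of these data known. They were divided by name into 4 interferon gamma GTPases (Igtp, Irgm1, Irgm2 and Iigp1), Irf1, and 34 genes called type I-driven here. Irf1, a transcription factor that both kinds of interferon induce, was kept apart. The type I-driven class holds every other member. The class names are labels, and which interferon drives a gene was not measured here.

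The study asked what the loss of Tet2, a dioxygenase that oxidises methylated cytosine in DNA, does to the muscle stem cell. The WT group held 2 libraries and the Tet2 KO group held 2 libraries of myoblasts from hindlimb skeletal muscle of C57BL/6 mice. Per the study's methods, the mice were males of 8 to 10 weeks, and the KO allele, which lacks exon 3 of Tet2, was carried by every cell of the animal and not by the muscle lineage alone. Satellite cells, the muscle stem cells, had been sorted by their CD34 and integrin alpha 7 and by the lack of CD45, CD11b, CD31 and Sca1, and were grown for at least 3 days on collagen at 0.5 mg/ml in a proliferation medium. No interferon was added in either group, as far as the labels and methods state.

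Type I interferons, which are interferon alpha and beta, bind a receptor made of Ifnar1 and Ifnar2. Its kinases Jak1 and Tyk2 activate a complex that holds Stat2 and Irf9 and binds the interferon-stimulated response element (ISRE) in the promoters of antiviral genes. Interferon gamma acts through another receptor, with the kinases Jak1 and Jak2, and through the gamma-activated site (GAS), and induces, among others, the immunity-related GTPases, proteins that attack the vacuoles of intracellular parasites.

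The promoter letters of the members were read before their levels, because they show which of these elements a gene could carry. RefSeq promoters of the mouse build GRCm38.p6, from 250 bases before to 50 bases after each gene's start, were given for 29 of the 39 members, as 34 promoters. Mx1, Mx2, Oas2, Usp18, Dhx58, Ifi27, Parp9, Parp14, Iigp1 and Zbp1 had none in that table. The core of the ISRE, searched as GAAANNGAAA on both strands, stood in the promoter of 15 of 29 members (51.7%), against 3.99% of all 27025 gene symbols in the promoter table. The core of the GAS, searched as TTCNNNGAA, which reads alike on both strands, stood in 10 of 29 members (34.5%), against 9.55% of all symbols. The 9 windows that follow are shown because they put the arrangement of the ISRE in type I-driven genes beside that in 3 of the GTPases. They are written 5′ to 3′ along the gene, with the ISRE letters in capitals, and TTTC pairs mark an element on the opposite strand.
Ifit1, chr19:34640780-34640837, plus strand: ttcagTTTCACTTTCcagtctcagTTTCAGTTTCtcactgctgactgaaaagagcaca
Ifit3, chr19:34583383-34583440, plus strand: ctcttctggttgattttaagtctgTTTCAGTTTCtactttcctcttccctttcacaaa
Isg15, chr4:156200851-156200908, minus strand: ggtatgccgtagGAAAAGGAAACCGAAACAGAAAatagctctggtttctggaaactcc
Oas1a, chr5:120907526-120907563, minus strand: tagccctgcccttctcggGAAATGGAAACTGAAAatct
Oas3, chr5:120777701-120777758, minus strand: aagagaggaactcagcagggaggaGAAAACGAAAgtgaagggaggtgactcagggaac
Bst2, chr8:71537563-71537620, minus strand: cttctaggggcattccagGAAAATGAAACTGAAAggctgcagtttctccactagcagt
Igtp, chr11:58199498-58199555, plus strand: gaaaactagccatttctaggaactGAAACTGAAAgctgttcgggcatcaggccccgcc
Irgm1, chr11:48871421-48871468, minus strand: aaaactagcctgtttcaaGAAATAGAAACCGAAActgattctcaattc
Irgm2, chr11:58214889-58214946, plus strand: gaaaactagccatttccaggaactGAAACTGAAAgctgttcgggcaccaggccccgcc

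The same ISRE letters thus stood in both classes. They were found in 12 of 25 type I-driven members with a promoter in the table (48%) and in all 3 GTPases with one. Isg15 carried 3 overlapping copies, and Oas1a, Bst2 and Irgm1 each carried 2 overlapping copies. Ifit1 carried 2 separate copies on the opposite strand, and Ifit3 carried another copy on that strand outside the window shown. Igtp and Irgm2, neighbours on chromosome 11, had windows identical at 56 of 58 bases. GAS letters stood in the promoters of Igtp and Irgm2 and in 7 of 25 type I-driven members (28%), and in Bst2 and Ifitm3 they overlapped an ISRE copy. A match of letters describes the sequence and is not a measured binding site.

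**Figure D1:**
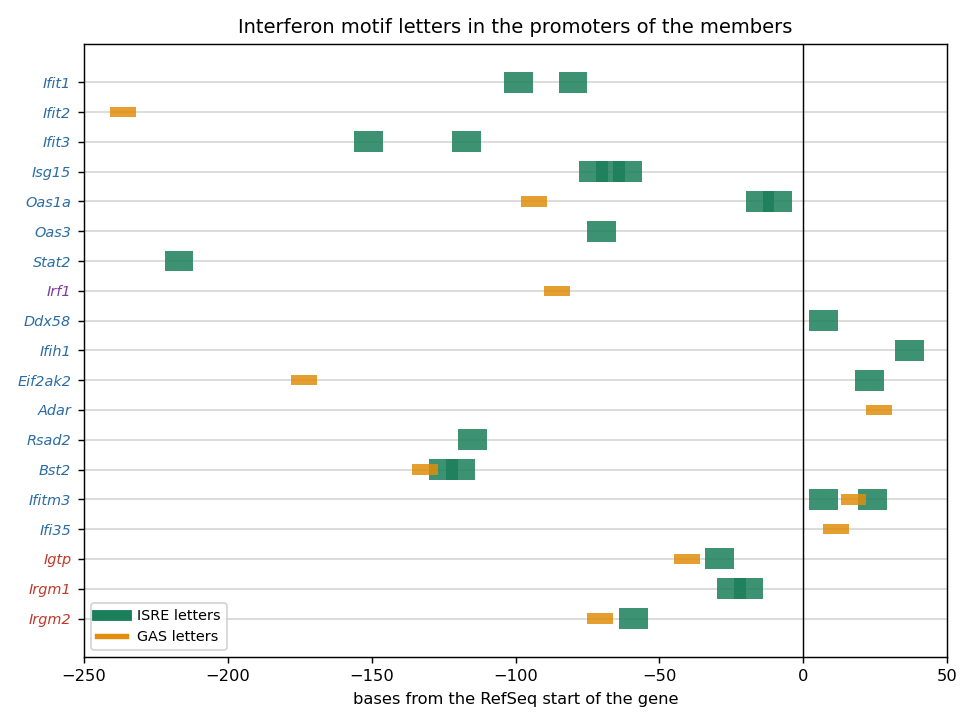
Position of ISRE letters (green) and GAS letters (orange) in the promoters of the 19 members that held either, in bases from the RefSeq start at 0. Gene names are blue for type I-driven members, red for interferon gamma GTPases and purple for Irf1, and in Igtp and Irgm2 a GAS copy stood just before the ISRE copy.

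Expression was read as FPKM (fragments per kilobase of transcript scaled by the number of mapped fragments), a unit that allows levels of different genes to be compared. The deposited table gave 1 value per gene and group, so the spread between the libraries of a group is not known here, and no value below carries an error, a number of replicates or a test. Differences are given as the log2 ratio of Tet2 KO over WT after adding 1 FPKM to each value, and were counted only for genes with a mean of at least 1 FPKM over the groups. A ratio past 1.5-fold is a description of these pooled values. Tet2 itself stood at 5.79 FPKM in Tet2 KO against 6.64 FPKM in WT, a log2 ratio of -0.17, which does not check the genotype because the value covers the whole gene and not exon 3 alone.

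The cultures held the myoblast genes in both groups and other cells' genes to an unequal degree. Myod1, the master regulator of the muscle lineage, was at 313 FPKM in Tet2 KO against 336 FPKM in WT, and all 8 myoblast markers lay within 1.5-fold, from -0.27 to 0.28. All 18 leukocyte markers were higher in Tet2 KO past 1.5-fold, with a summed level of 556 FPKM against 141 FPKM and log2 ratios from 0.88 to 2.19. Ptprc, which encodes the CD45 used in the sort, stood at 5.67 against 1.36 FPKM, and Itgam, which encodes CD11b, at 10.1 against 2.09 FPKM. The genes of the other excluded markers were nearly equal, Ly6a for Sca1 at 288 against 278 FPKM and Pecam1 for CD31 at 1.48 against 1.63 FPKM. Of 8 fibroblast markers, 7 passed the filter and lay above 0, with a median log2 ratio of 0.32, and Dcn at 7.04 against 3.15 FPKM and Col1a2 at 15.8 against 8.71 FPKM were higher past 1.5-fold. None of 12 lymphocyte markers reached a mean of 1 FPKM, and 7 of 8 endothelial markers did not. All 8 myocyte markers were lower past 1.5-fold, with a median of -1.21. In such bulk samples, fewer cells of a type and less RNA per cell cannot be told apart. The part of these shifts in the values of the interferon-stimulated genes was not tested.

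The interferon-stimulated genes as a group stood at nearly the same level in Tet2 KO and WT myoblasts. Of 37 members past the filter, 1 was higher in Tet2 KO past 1.5-fold, against 3.72% of all 11692 genes past the filter. None was lower past 1.5-fold, against 2.89% of all genes. The exception was Oas3, a low-level gene. Its WT value of 0.862 FPKM lay below 1 FPKM, so it passed the filter only through its higher Tet2 KO value. That same value set its ratio. The median log2 ratio of the members was 0.03, beside -0.0044 for all genes, with 19 members above 0 and 18 below. Their summed level was 2619 FPKM in Tet2 KO against 2620 FPKM in WT. By raw FPKM, 34 of the 37 lay within 25% of equality, beside 9609 of all 11692 genes past the filter. The 5th to 95th percentiles of the members' log2 ratios ran from -0.24 to 0.33, against -0.40 to 0.44 for all genes. The median size of the ratio without its sign was 0.137 for the members and 0.0997 for all genes.

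**Figure D2:**
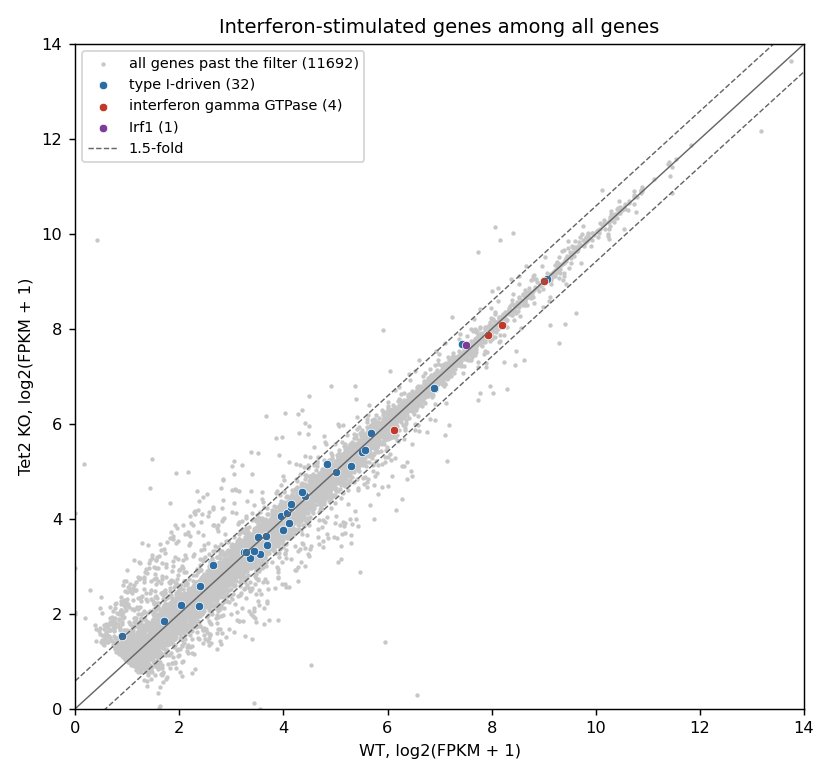
Level in Tet2 KO against level in WT, both as log2(FPKM + 1), for all 11692 genes past the filter (grey) and the 37 members past it (coloured by class), with the diagonal of equal level and dashed lines at 1.5-fold. All members but Oas3, at the lower left, lie between the dashed lines.

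The levels of the members spread over more than 3 orders of magnitude, from 0.304 FPKM for Oas2 to 536 FPKM for Ifitm3, both in WT. The 7 members above 100 FPKM made up 78.7% of the summed member level in Tet2 KO and 78.5% in WT. They were Ifitm3, Iigp1, Irgm1, Igtp, Irf1, Bst2 and Ifi27. Most of the type I-driven members were of middle level, 24 of them between 5 and 60 FPKM. The 5 lowest that passed the filter were under 5 FPKM.

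**Figure D3:**
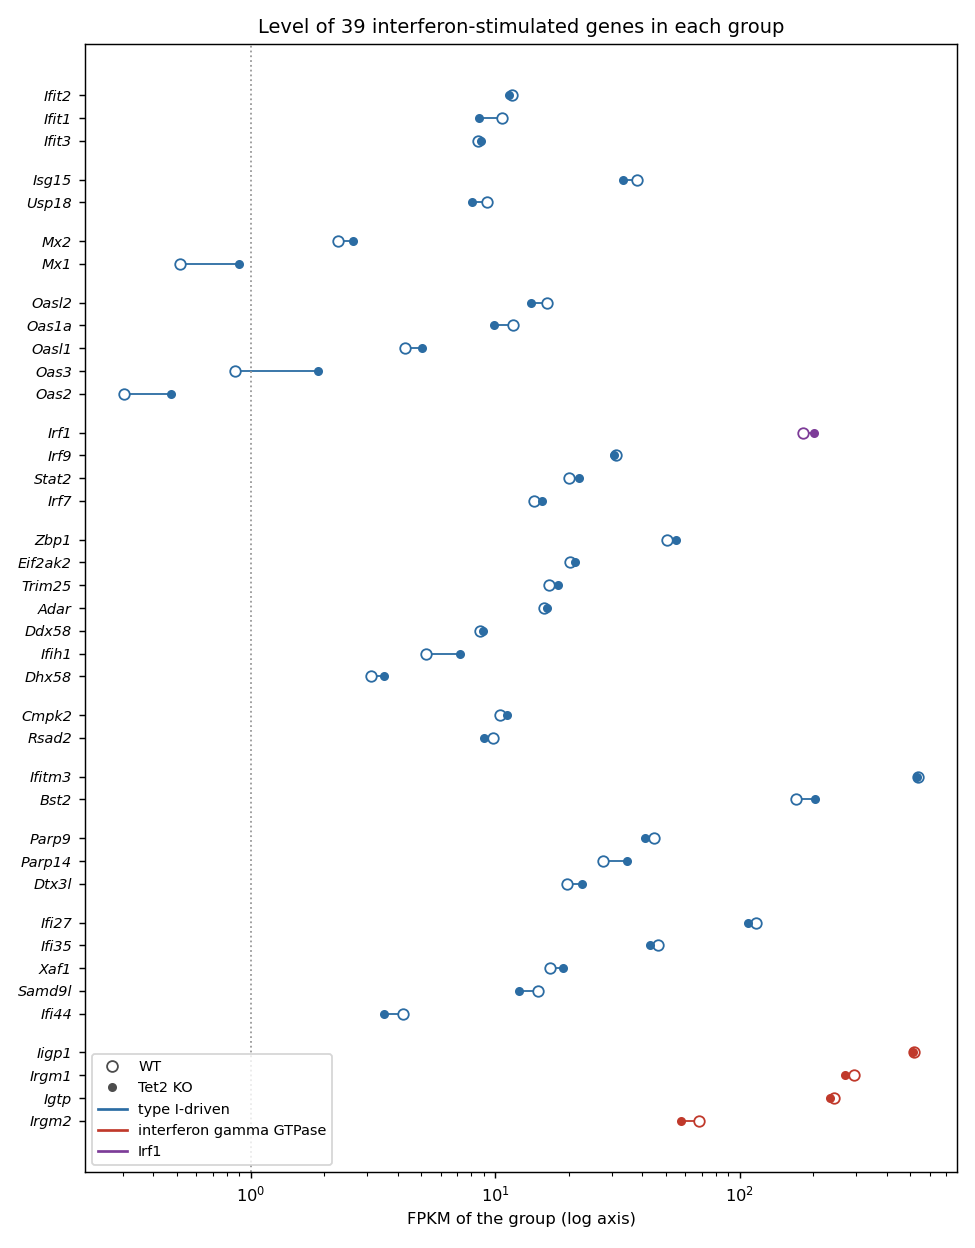
FPKM of each of the 39 members on a log axis, in WT (open circles) and Tet2 KO (filled circles), grouped by role, with a dotted line at 1 FPKM. The circles of a gene nearly touch for most members, the widest gaps belong to the low genes Oas3, Mx1 and Oas2, and the GTPases sit at the right.

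The interferon-induced proteins with tetratricopeptide repeats bind viral RNA and block its translation. Ifit1, which recognises RNA caps that lack methylation, stood at 8.59 FPKM in Tet2 KO against 10.7 FPKM in WT, a log2 ratio of -0.28 and the lowest of the members past the filter. Ifit2 was at 11.4 and 11.8 FPKM, and Ifit3, a partner of Ifit1, at 8.79 and 8.51 FPKM. All 3 were thus within 1.5-fold, with a median log2 ratio of -0.04. A stretch of at least 95% identity covers 97.4% of the Ifit3 transcript in its neighbour I830012O16Rik, so the division of reads between these copies is uncertain.

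Isg15, a ubiquitin-like protein that is attached to newly made proteins, stood at 33.4 FPKM in Tet2 KO against 38.2 FPKM in WT. Usp18, the protease that removes Isg15 and that also dampens signalling at the type I receptor, stood at 8.03 and 9.30 FPKM. Both log2 ratios were -0.19, so this pair lay slightly below equality by the same amount.

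The Mx proteins are dynamin-like GTPases that trap viral nucleocapsids. Mx1 was listed at 0.896 FPKM in Tet2 KO against 0.512 FPKM in WT, below the filter and the nearest member beneath it. Mx2 stood at 2.63 and 2.27 FPKM, with a log2 ratio of 0.15. Of the Mx2 transcript, 34.8% has a close copy in Mx1.

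The oligoadenylate synthetases sense double-stranded RNA and make the messenger that switches on RNase L. Oas3, the largest protein of the family, was at 1.88 FPKM in Tet2 KO against 0.862 FPKM in WT. Its log2 ratio of 0.63 was the highest of the members, its raw fold was 2.19, and 6.05% of all genes past the filter had a larger ratio in either direction. Its mean of 1.37 FPKM also made it the member nearest above the filter, at the percentile of 3.98 of level among all genes that passed. In the files' build mm9 the gene has 16 exons on the minus strand of chromosome 5, between 121203107 and 121227668, and its promoter holds the ISRE copy shown above.

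The other members of this family did not share that ratio. Oas1a stood at 9.87 FPKM in Tet2 KO against 11.8 FPKM in WT, and its whole transcript has a close copy in Oas1g, so its share of reads is uncertain. Oas2, the neighbour of Oas3, was listed at 0.474 and 0.304 FPKM, below the filter. Oasl1 and Oasl2 are related proteins, of which Oasl1 restrains the translation of Irf7. These neighbours on chromosome 5 lay on opposite sides of equality, Oasl1 at 5.04 and 4.30 FPKM with a log2 ratio of 0.19, and Oasl2 at 14 and 16.3 FPKM with -0.21.

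The transcription factors of the response lay close to equality, with log2 ratios from -0.03 to 0.15. Stat2 stood at 22.1 FPKM in Tet2 KO against 20.0 FPKM in WT, and Irf9, its DNA-binding partner, at 30.7 and 31.3 FPKM. Irf7, which amplifies the production of interferon alpha, was at 15.6 and 14.5 FPKM. Irf1, which both interferons induce through its GAS element, was far more abundant than these, at 202 and 182 FPKM with a log2 ratio of 0.15. The promoter of Irf1 held a GAS copy and no ISRE copy.

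The sensors of foreign nucleic acid and their partners lay at or slightly above equality. The log2 ratios of these 7 members were above 0, as were those of 5703 of all 11692 genes past the filter. The 7 ratios ran from 0.03 to 0.39 with a median of 0.11, and none passed 1.5-fold. Ifih1, which encodes the sensor Mda5 of long double-stranded RNA, stood highest among them by ratio, at 7.18 FPKM in Tet2 KO against 5.23 FPKM in WT. Ddx58, which encodes the sensor Rig-I, was nearly equal at 8.92 and 8.69 FPKM. Dhx58, a regulator of both that has no signalling domain, stood at 3.52 and 3.11 FPKM. The ligase Trim25, which assists Rig-I, was at 18.1 and 16.6 FPKM. Zbp1, a sensor of Z-form nucleic acid that can start cell death, was the most abundant of the group at 55.1 and 50.4 FPKM. Eif2ak2, the kinase PKR that stops translation on binding double-stranded RNA, stood at 21.3 and 20.3 FPKM. Adar, which edits adenosine in double-stranded RNA and so hides the cell's own RNA from these sensors, stood at 16.4 and 15.8 FPKM. Of all genes past the filter, 80.9% had a larger ratio in either direction than Ddx58, and 72.5% than Adar.

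Rsad2 encodes viperin, which makes a chain-ending nucleotide, and Cmpk2, its neighbour on chromosome 12, encodes a nucleotide kinase that supplies it. Rsad2 stood at 9.03 FPKM in Tet2 KO against 9.78 FPKM in WT, and Cmpk2 at 11.2 and 10.5 FPKM. Their log2 ratios were -0.10 and 0.09, on either side of equality.

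The membrane restriction factors were among the most abundant members. Ifitm3, which blocks the entry of viruses from endosomes, stood at 532 FPKM in Tet2 KO against 536 FPKM in WT, the highest mean of all 39 members. Bst2, the tether that holds budding virus at the cell surface, stood at 203 and 171 FPKM, a log2 ratio of 0.25 that lay within 1.5-fold. Ifitm3 was thus nearly equal in both groups, at a level above 98.5% of all genes past the filter.

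Parp14 and Parp9 transfer or bind ADP-ribose and modulate interferon signalling, and Dtx3l is the ubiquitin ligase that works with Parp9. Parp14 stood at 34.8 FPKM in Tet2 KO against 27.8 FPKM in WT, a log2 ratio of 0.32. Dtx3l stood at 22.6 and 19.6 FPKM, and Parp9 at 41.2 and 44.6 FPKM. These 3 genes are neighbours on chromosome 16. Dtx3l and Parp9 were given as a shared locus in the table, and their exons overlap on opposite strands, so reads from the shared bases cannot be assigned without strand. The same limit holds for Irf7, Irf1, Oasl1, Dhx58, Eif2ak2 and Ifi35, whose exons overlap other genes on the opposite strand. Exons of Irf9 overlap those of Rnf31 on the same strand, so the division of those reads is uncertain too.

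The remaining type I-driven members have less defined or varied roles. Ifi27, which encodes a small mitochondrial protein, stood at 108 FPKM in Tet2 KO against 117 FPKM in WT, and Ifi35, which binds Nmi, at 43.0 and 46.3 FPKM. Xaf1, which promotes apoptosis, stood at 19 and 16.8 FPKM. Samd9l, a brake on growth and translation, was at 12.6 and 14.9 FPKM, and Ifi44 was at 3.52 and 4.20 FPKM. Of these 5 genes, 4 lay below equality and Xaf1 above it, all within 1.5-fold.

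The interferon gamma GTPases were abundant and all lay slightly below equality. Igtp, also called Irgm3, stood at 234 FPKM in Tet2 KO against 243 FPKM in WT. Irgm1, which with Igtp and Irgm2 keeps the effector GTPases off the cell's own membranes, stood at 269 and 293 FPKM. Irgm2 stood at 57.9 and 68.4 FPKM. Iigp1, an effector that is loaded onto the vacuole of the parasite and breaks it, stood at 511 and 516 FPKM. The 4 log2 ratios ran from -0.24 for Irgm2 to -0.01 for Iigp1, with a median of -0.0863, and none passed 1.5-fold. Of all 11692 genes past the filter, 5989 lay below 0. A larger ratio in either direction than that of Iigp1 was held by 92.0% of these genes, and than that of Igtp by 71.3%. Short stretches of at least 95% identity, of 7.22% of the Igtp transcript and 4.22% of the Irgm2 transcript, are shared between these neighbours.

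Set side by side, the classes differed in level far more than in their ratio of Tet2 KO to WT. The median of the mean level was 260 FPKM over the 4 GTPases and 15.1 FPKM over the 32 type I-driven members past the filter, a ratio of 17.2. Ifitm3, Bst2 and Ifi27 were the 3 type I-driven members above the lowest GTPase. The median log2 ratio was 0.0456 for the type I-driven members, of which 18 lay above 0 and 14 below, and -0.0863 for the GTPases, a gap of -0.132. As summed FPKM, Tet2 KO over WT was 1.02 for the type I-driven members and 0.958 for the GTPases. The ratios of the GTPases lay inside the range of the type I-driven members, which ran from -0.28 to 0.63. With 1 value per group, whether this gap exceeds the spread between libraries could not be tested. The contrast in level was measured on these 4 member GTPases. Interferon-inducible GTPases outside the members ranged in Tet2 KO from 0.514 FPKM for Gm5431 to 349 FPKM for Gbp2. Of the others, Gvin1, Gbp5, Gm12250, Tgtp2, Gm4951 and Tgtp1 stood between 1.13 and 49.9 FPKM in Tet2 KO. Gbp6, Gbp3, Gbp7 and Ifi47 stood between 59.8 and 111 FPKM.

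The members with and without ISRE letters in the promoter lay at like ratios. The median log2 ratio was -0.01 over the 15 members with these letters and 0.07 over the 14 without, with median levels of 20.8 and 15.6 FPKM.

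The genes upstream of the members were measured from a list of ligands, receptors and signalling proteins. None of 21 interferon genes reached a mean of 1 FPKM, and 13 of them, including Ifnb1 and Ifng, were listed at 0 in both groups. The highest value of any was 0.343 FPKM, for Ifna13 in WT. The receptor subunits of both interferons were present in both groups. Ifnar1 stood at 14.7 FPKM in Tet2 KO against 13.9 FPKM in WT, and Ifnar2 at 22.3 and 20.6 FPKM. The interferon gamma receptor subunits Ifngr1 and Ifngr2 stood at 17.6 against 14.9 FPKM and at 13.2 against 10.3 FPKM. Of the 14 receptor and signalling genes, 13 passed the filter, 11 of them above 0 and 2 below, and none passed 1.5-fold in either direction.

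The receptor kinases Jak1 and Jak2 stood at 29.0 FPKM in Tet2 KO against 26.0 FPKM in WT and at 15.8 against 13.6 FPKM, and Tyk2 at 5.0 against 5.17 FPKM. The feedback inhibitors Socs1 and Socs3 had the highest ratios of this list. Socs1, which inhibits the kinases of both receptors, stood at 26.6 against 18.3 FPKM, a log2 ratio of 0.52, and Socs3 at 31.6 against 23.8 FPKM, with 0.39. Pias1 had the lowest log2 ratio of the list, -0.105, and Ptpn2 stood at 0.105. Among 10 genes that lead to the making of interferon, Irf5, a factor best known in myeloid cells and B cells, was higher past 1.5-fold, at 5.31 against 2.15 FPKM. Ikbke, a kinase that activates such factors, stood at 3.38 against 2.0 FPKM, past 1.5-fold as a raw fold of 1.70 but not on the log2 scale with 1 FPKM added. The list's median log2 ratio was 0.11.

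Interferon-stimulated genes that are not members had a wider range. Of 35 such genes, 32 passed the filter, 16 above 0 and 16 below, with a median log2 ratio of -0.0017. Ifitm1, a relative of Ifitm3 that acts at the cell surface, was higher in Tet2 KO, at 41.2 against 9.34 FPKM and a log2 ratio of 2.03. Sp140, Trim30a and Sp110 were also higher past 1.5-fold, with log2 ratios of 1.20, 1.12 and 0.70, Sp110 and Sp140 being given as a shared locus in the table. Ddx60, a helicase that assists Rig-I, was lower, at 8.95 against 18.4 FPKM. B2m, the light chain of MHC class I and the most abundant of the list, stood at 936 against 967 FPKM.

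Other interferon-inducible GTPases had no common direction. Of 12 listed, 11 passed the filter, 7 above 0 and 4 below, with a median log2 ratio of 0.07. Tgtp2 was higher past 1.5-fold, at 22.3 against 13.5 FPKM, whereas its near relative Tgtp1 stood at 49.9 against 71.5 FPKM, a log2 ratio of -0.51. The search for close copies covered members only, so the division of reads between these relatives was not tested. Tgtp2 and Ifi47 were given as a shared locus in the table. Gbp5, a guanylate-binding protein that coats bacteria, was higher at 10.7 against 6.69 FPKM, and Gbp2, the most abundant of the list, stood at 349 against 252 FPKM with 0.47. Ifi47 stood at 111 against 120 FPKM and Gm4951 at 26.8 against 25.4 FPKM, on either side of equality.

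**Figure D4:**
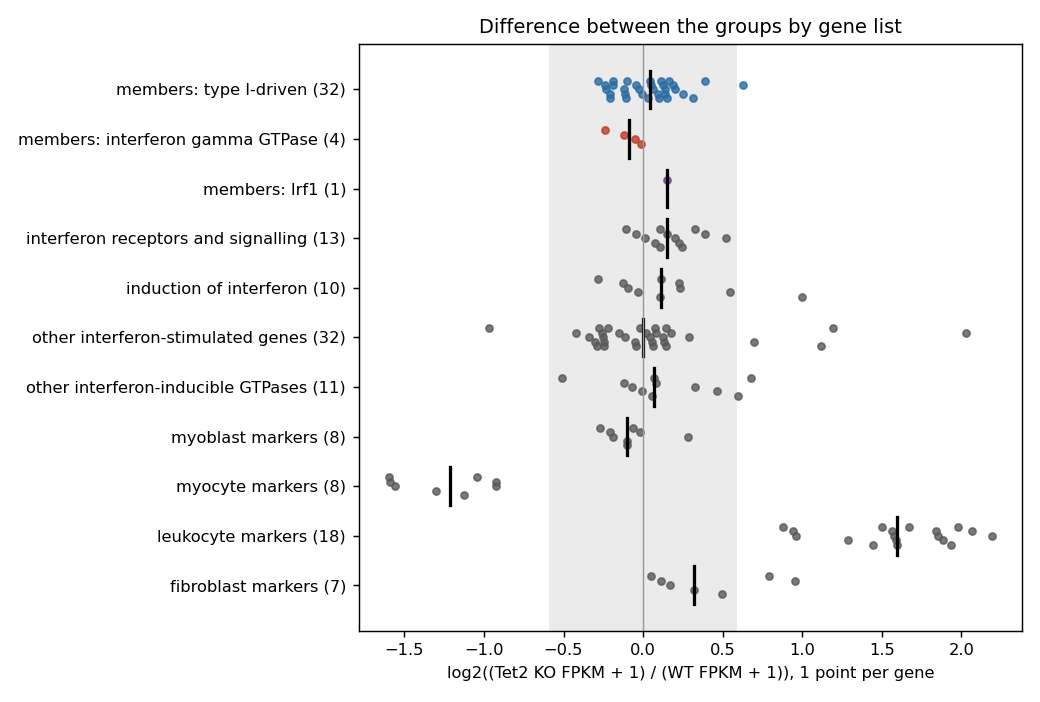
Log2 ratio of Tet2 KO over WT for each gene past the filter (points), by list, with the number of genes in brackets, the median as a black bar and the band within 1.5-fold in grey. Both member classes sit inside the band except Oas3, while the leukocyte markers lie to the right of it, from 0.88 to 2.19, and the myocyte markers to the left, with a median of -1.21.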

How the data were processed

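Total RNA of 4 myoblast libraries (2 WT, 2 Tet2 KO) was made into TruSeq RNA libraries, a kit that does not mark strand, and sequenced as read pairs. Per the study's methods and the submitters' processing notes, reads were trimmed, aligned to mm9 with TopHat2 2.0.13 and compared with Cuffdiff 2.2.1, and CASAVA and FastQC are also named. The gene annotation and the way libraries of a group were combined are not given in the sources used here. The deposited table held 1 FPKM value per gene and group, computed by the authors, which is a mean or estimate over the group. The same table held the authors' own log2 fold change, test statistic, p-value and q-value for each gene, and these were not used. Read depth per library is unknown, and no interval was computed.

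Here log2((Tet2 KO FPKM + 1) / (WT FPKM + 1)) was computed for all genes with a mean of at least 1 FPKM, and genes past 1.5-fold were counted. No test was possible with 1 value per group. The code was checked on simulated data. Named genes were all members by role and, from other lists, Tet2, those past 1.5-fold, the most abundant and examples a count needed. Members and lists were chosen with earlier results of these data known. Promoter letters came from RefSeq (GRCm38.p6), exons from an annotation of the files' build, and close copies (at least 95% identity over 100 bases) from BLAST+ 2.17.0. Python 3.11.15, numpy 2.4.6, pandas 2.3.3 and matplotlib 3.10.9 were used. Alternatives were other pseudocounts, filters, folds, scalings and member sets, of which 1 member set was added after seeing the data.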

Additional observations from a re-analysis of the deposited data

How the results depend on the processing

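The median log2 ratio of the type I-driven members ran from 0.0336 to 0.0908, that of the interferon gamma GTPases from -0.121 to -0.0819 and the gap between them from -0.212 to -0.12, over a pseudocount of 0.1 FPKM or none, no filter, a mean of at least 5 FPKM, rescaling to TPM, centring on the median of all genes and leaving out 6 members listed by name for their close relatives (Ifit1, Ifit3, Oas1a, Iigp1, Ifi27 and Ifitm3). Leaving out instead the 11 members with a stretch of at least 95% identity, an alternative chosen after seeing the data, gave 0.0491 for the type I-driven members, -0.121 for Irgm1, the GTPase that remained, and a gap of -0.17. Ifi27 was not found in the annotation used, so it was not searched for copies and stayed in this alternative. Counting Irf1 as type I-driven gave 0.0491 and a gap of -0.135. No direction was reversed. The count of members higher past 1.5-fold was 0 with a mean of at least 5 FPKM and 0 at a 2-fold threshold, since Oas3 then no longer counted. None of the alternatives put a member among the lower. Bases upstream of the start alone held ISRE letters in 37.9% of members, against 3.46% of all symbols, and GAS letters in 24.1% of members and 4 of 25 type I-driven members (16%), against 8.13%. No paired analysis was possible because each group has 1 value per gene, and for the same reason no library could be left out in turn.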

Other observations

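Ifitm3 lies on chromosome 7 of mm9 among relatives, of which Ifitm1 and Ifitm6 had ratios unlike its own. These neighbours were chosen after their values were seen. Ifitm1, which starts at 148153328, was 4.41-fold higher in Tet2 KO, and Ifitm6, which starts at 148201711, was 4.06-fold higher, at 7.81 against 1.92 FPKM. Ifitm3, which starts between them at 148195489, had a log2 ratio of -0.01. Ifitm2 stood at 168 FPKM in Tet2 KO against 159 FPKM in WT, Ifitm5 at 1.03 and 1.16 FPKM, and Ifitm10, farther along the chromosome, at 6.23 and 6.81 FPKM. The members of this cluster thus lay near equality except Ifitm1 and Ifitm6. Whether the leukocyte transcripts, whose summed level was 556 against 141 FPKM, account for the values of Ifitm1 and Ifitm6 was not tested.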
